A study of Mus musculus with 24 samples.

Results

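The 10 genes Hspa1a, Hspa1b, Hspa8, Hsph1, Hsp90aa1, Hsp90ab1, Dnajb1, Hspb1, Bag3 and Hspe1 encode heat shock proteins and their partners. They were taken by symbol from the 55487 genes of a bulk kidney RNA sequencing table, and all 10 were found. The kidneys came from 24 male mice on the B6 background at 15 weeks of age, every one of them with X-linked Alport syndrome (XLAS, from a cross of Nbl1 and Col4a5 mutants), a hereditary kidney disease of type IV collagen. The mice were either heterozygous (HET, 13 mice) or wild type (WT, 11 mice) for Nbl1, which encodes a secreted antagonist of bone morphogenetic proteins. There were 2 batches: batch 1 held 6 HET mice beside 6 WT mice, and batch 2 held 7 HET mice beside 5 WT mice. All groups share the Alport disease, and mice without it were not analysed here. Each label names a library of its own, though the animal number in the title of HET replicate 8 is not the one in its library name.

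Heat shock proteins bind unfolded or partly folded proteins, keep them from clumping and help them refold. HSP70 proteins work in cycles driven by ATP, with J-domain proteins that deliver clients and exchange factors that release them, and HSP90 proteins complete the folding of kinases and steroid receptors. Cells make some members at all times (here Hspa8, Hsp90ab1 and Hspe1, called constitutive), while heat, toxins or handling of the tissue switch on others through the transcription factor HSF1 (here Hspa1a, Hspa1b, Dnajb1, Hsph1, Hsp90aa1, Hspb1 and Bag3, called inducible). This division is from textbook knowledge and several members respond to both. Hspe1 is known as the mitochondrial co-chaperonin that caps the chaperonin made from Hspd1, so the name cytosolic does not describe it.

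HSF1 is known to bind inverted repeats of GAA, and the sequences before the start sites are shown because 5 of the 7 members with a promoter in the RefSeq table (GRCm38.p6) hold such a pair. The pair was searched as GAANNTTC or TTCNNGAA, each of which reads the same on both strands, within the 250 bases before the start. It was present in 12.8% of 32851 promoter windows of that length. In the lines that follow, each sequence runs 5′ to 3′ on the strand of its gene, and capitals mark the pair.
Hspa1a: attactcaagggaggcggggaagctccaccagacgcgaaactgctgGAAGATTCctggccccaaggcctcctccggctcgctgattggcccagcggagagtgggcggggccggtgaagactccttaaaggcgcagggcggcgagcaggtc
Hspa1b: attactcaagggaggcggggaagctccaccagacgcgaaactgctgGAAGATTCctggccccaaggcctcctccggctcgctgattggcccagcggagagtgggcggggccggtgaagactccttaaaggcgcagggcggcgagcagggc
Hspb1: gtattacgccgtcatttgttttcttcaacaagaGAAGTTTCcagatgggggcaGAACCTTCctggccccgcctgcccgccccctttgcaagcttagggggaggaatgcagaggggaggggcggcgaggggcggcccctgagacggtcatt
Hsph1: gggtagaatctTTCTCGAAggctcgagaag
Hspe1: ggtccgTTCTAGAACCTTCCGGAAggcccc
The Hspa1a stretch is the 150 bases before the start on the minus strand (chr17:34972157-34972306), and the Hspa1b stretch is its counterpart (chr17:34959239-34959388, minus strand). The Hspb1 stretch is the 150 bases before the start on the plus strand (chr5:135887769-135887918). Of Hsph1 (chr5:149636351-149636380, minus strand) and Hspe1 (chr1:55088053-55088082, plus strand), only the 30 bases around the pair are shown. All starts are those of the RefSeq table. The Hsph1 pair (chr5:149636362-149636369) lies before that start but inside the gene as GENCODE M21 places it, with a 5′ end at 149636376.

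Hspb1 had 2 separate pairs, and Hspe1 had 3 overlapping ones. The overlapping pairs of Hspe1 hold overlapping runs of 3 alternating GAA and TTC units with the same spacing, searched on both strands. Such a run was present in 0.466% of the windows. Dnajb1 and Bag3 had no pair in this window. Hspa8, Hsp90aa1 and Hsp90ab1 were not in the promoter table. A match describes these letters only, since binding of HSF1 was not measured.

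Hspa1a and Hspa1b are neighbouring genes with nearly the same sequence. Over the 250 bases before the start, 247 were identical (98.8%), and the 3 differences, counted in bases before the start with the Hspa1a base written at the front, were C207T, T204C and T2G. Their coding sequences were 99.43% identical and their 3′ untranslated regions 48.28% identical. Of all 50-base stretches, 58.81% of those in Hspa1a also occur in Hspa1b, and 62.31% of those in Hspa1b occur in Hspa1a. Counts of the pair are therefore uncertain as single genes, and the expected counts were not whole numbers in any of the 24 libraries for Hspa1a, Hspa1b, Hspa8 or Hsp90aa1.

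On GRCm38 (GENCODE M21), Hspa1a (ENSMUSG00000091971) lies on chromosome 17 at 34969190 to 34972156 and Hspa1b (ENSMUSG00000090877) at 34956436 to 34959238. Hspa8 (ENSMUSG00000015656) lies on chromosome 9 at 40800984 to 40810087, with the small nucleolar RNA genes Snord14c, Snord14d and Snord14e in its introns, which averaged 19.4, 28.5 and 5.45 counts a library against 61517 for Hspa8. Hsph1 (ENSMUSG00000029657) lies on chromosome 5 at 149614287 to 149636376, Hsp90aa1 (ENSMUSG00000021270) on chromosome 12 at 110690605 to 110702728 and Hsp90ab1 (ENSMUSG00000023944) on chromosome 17 at 45567775 to 45573271. Dnajb1 (ENSMUSG00000005483) lies on chromosome 8 at 83608193 to 83612653, Hspb1 (ENSMUSG00000004951) on chromosome 5 at 135887919 to 135889563 and Bag3 (ENSMUSG00000030847) on chromosome 7 at 128523616 to 128546981. Hspe1 (ENSMUSG00000073676) lies on chromosome 1 at 55088132 to 55091307, and its 5′ end overlaps that of Hspd1 on the opposite strand. Hspd1 had a mean of 20676 counts and Hspe1 a mean of 3940, and the sources used here do not say whether the counting used strand, so reads from the shared stretch cannot be assigned.

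The libraries held 29551337 to 33019871 expected counts in batch 1 and 36380374 to 50746652 in batch 2. The library labelled HET replicate 6 and the libraries labelled WT replicates 1 and 2, all of batch 1, stood apart from others of their label in Nbl1 and in Htr6. HET replicate 6 had 9.24 CPM of Nbl1, while the other HET mice of that batch had 3.86 to 4.89 CPM. WT replicates 1 and 2 had 5.41 and 3.62 CPM, while the other WT mice of that batch had 6.996 to 7.78 CPM. The 5.41 CPM of WT replicate 1 lay between the other mice of the 2 labels. Htr6, chosen after its values were seen, had 0 counts in HET replicate 6 and 26 and 14 counts in WT replicates 1 and 2, while the other 12 HET mice had 8 to 49 counts and the other 9 WT mice 0 to 2. Whether labels were exchanged was not tested. In batch 2 Nbl1 was at 4.22 to 7.82 CPM in HET and 6.9985 to 15.1 CPM in WT, and over all mice its log2 fold change was -0.67 (edgeR adjusted p = 0.997). Results for genotype are given with these 3 libraries as labelled and, where they change, without them. Markers of the kidney were present in every library, with 7 proximal tubule genes summing to at least 9381 CPM and 6 podocyte genes to at least 442 CPM. In whole kidney, more cells of a type and more RNA per cell cannot be told apart.

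Per length, Hspa8 was the most abundant member and Hspa1a the least abundant in both batches. Length-scaled transcript values (TPM) were compared between genes within a batch, because TPM of most genes were higher in batch 2. In batch 1, Hspa8, the constitutive HSP70, was at 454 ± 90.4 TPM (SD, n = 12), and in batch 2 it was at 1451 ± 357 TPM (SD, n = 12). Its place among all genes by TPM ranged from 29 to 185 over the 24 libraries. Hsp90ab1, the constitutive cytosolic HSP90, followed at 257 ± 24.3 TPM in batch 1 and 648 ± 104 TPM in batch 2 (SD, n = 12 each).

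Hsp90aa1, the inducible HSP90, was at 105 ± 12.8 TPM in batch 1 and 277 ± 70.2 TPM in batch 2 (SD, n = 12 each). Hspe1 was at 142 ± 11.996 TPM and 256 ± 28.4 TPM. Hspe1 was above Hsp90aa1 in 12 of 12 libraries of batch 1, and Hsp90aa1 was above Hspe1 in 8 of 12 libraries of batch 2, so their order was not the same in both batches. Hsph1, the HSP110 that acts as an exchange factor for HSP70, came next with 24.8 ± 4.65 TPM and 79.2 ± 27.8 TPM, below the former 4 in every library.

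The remaining 5 members lay close together at low levels. In batch 1 the means were 8.76 TPM for Hspb1, the small heat shock protein HSP27, 8.34 TPM for Hspa1b, 7.57 TPM for Bag3, an exchange factor for HSP70 that works in selective autophagy, 6.45 TPM for Dnajb1, the J-domain partner of HSP70, and 4.24 TPM for Hspa1a. Hspb1 was above Hspa1b in 6 of 12 libraries and Hspa1b above Bag3 in 5 of 12, so these neighbours did not differ beyond their spread. Bag3 was above Dnajb1 in 11 of 12 libraries, and Dnajb1 above Hspa1a in 12 of 12. In batch 2 the order was Hspa1b at 21.4 TPM, Bag3 at 17.7 TPM, Hspb1 at 16.5 TPM, Dnajb1 at 14.2 TPM and Hspa1a at 10.7 TPM, and each of the upper 3 neighbouring pairs kept this order in 7 to 9 of 12 libraries.

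**Figure D1:**
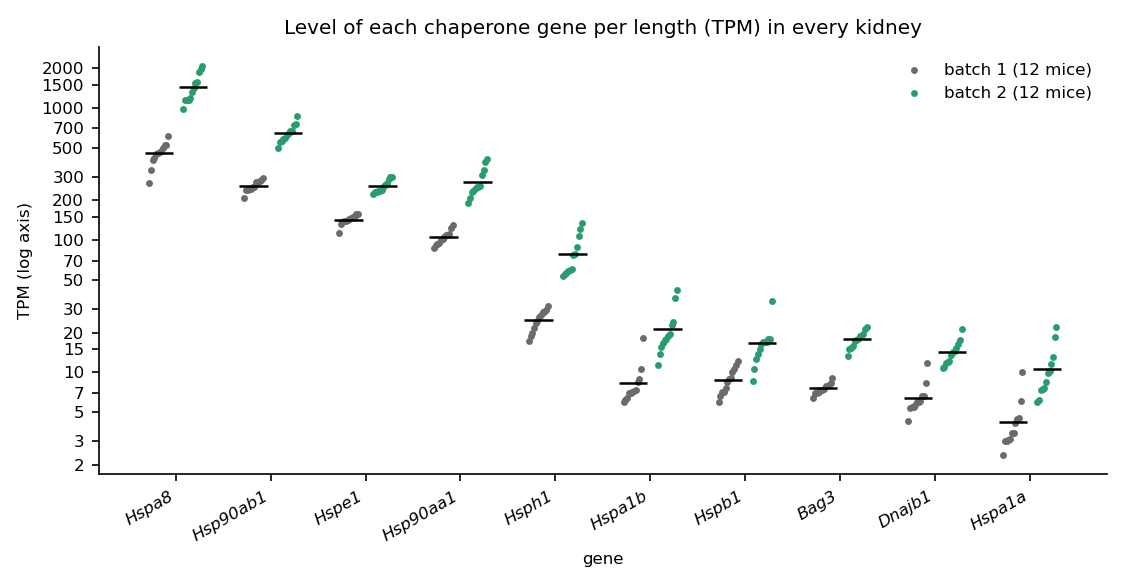
TPM (log axis) of the 10 genes in every kidney, with 12 mice in batch 1 (grey) and 12 in batch 2 (green), points sorted within a batch and black bars at the mean. Hspa8 is at 454 TPM on average in batch 1 and 1451 in batch 2, and Hspa1a at 4.24 and 10.7.

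The ratio of 2 members within a library does not depend on the scaling of that library. Hspa1a and Hspa1b together gave 2.46 ± 0.775 TPM for every 100 TPM of Hspa8 (SD, n = 24), with a range from 1.57 to 5.34, and the highest ratio was in HET replicate 5. Hsp90aa1 gave 41.6 ± 4.22 TPM for every 100 TPM of Hsp90ab1 (SD, n = 24), with a range from 34.2 to 55.0. Inducible transcripts of both families were thus present in all 24 kidneys at a lower level than the constitutive ones. Hspa1a gave 49.7 ± 6.64 TPM for every 100 of Hspa1b (SD, n = 24), with the reservation on shared reads given above. Hspe1 gave 87.1 ± 6.46 TPM for every 100 of Hspd1 in batch 1 and 65.2 ± 3.54 in batch 2 (SD, n = 12 each), and the ranges of 77.3 to 98.5 and 57.5 to 71.9 did not overlap.

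Of the 7 inducible members, 6 varied between mice more than most genes did. The biological coefficient of variation that edgeR estimated with genotype and batch in the model was 37.6% for Hspa1a and 32.9% for Hspa1b, against a median of 10.7% over the 18339 genes tested. Hsph1 was at 26.7%, Hspb1 at 25.1%, Dnajb1 at 21.97%, Hspa8 at 20.6% and Hsp90aa1 at 19.7%. Hsp90ab1 at 12.6% and Hspe1 at 11.7% were near the median, and Bag3, although inducible, was below it at 9.54%. Among the genes nearest to each in level, these 3 were above most, at percentiles 85.0, 92.6 and 85.0, while the other 7 members were at percentiles from 93.1 to 99.4. The spread did not follow the class in every case, since constitutive Hspa8 varied more than inducible Hsp90aa1 and Bag3.

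On CPM (counts scaled to library size by TMM), which compare mice, the spread was not equal in the groups. For Hspa1a the SD of log2 CPM was 0.59 in HET and 0.39 in WT of batch 1, and 0.73 in HET and 0.31 in WT of batch 2. For Hsph1 it was 0.26 and 0.31 in batch 1, and 0.49 and 0.26 in batch 2. HET mice of batch 2 had the highest SD of the 4 groups for 9 of the 10 members, the exception being Dnajb1. The difference in spread between groups was not tested. Hspa8 alone made up 36.0% to 54.8% of the summed TPM of the 10 members, lowest in WT replicate 1 and highest in HET replicate 11.

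In batch 2 several HET mice had more transcript of the chaperone genes than any WT mouse. In batch 1 the medians of Hspa8, Hsph1, Hsp90aa1 and Hsp90ab1 were lower in HET than in WT. In batch 2 the largest log2 fold change of HET over WT was 0.57 for Hsph1, followed by Hspa1a at 0.52 and Hsp90aa1 at 0.45. Without HET replicate 13, Hsph1 was at 0.47, Hspa1a at 0.33 and Hsp90aa1 at 0.39. No member passed the test across all genes in either batch.

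Hspa1a in batch 1 ranged from 11.5 to 37.2 CPM with a median of 16.5 in 6 HET mice, and from 10.8 to 22.9 CPM with a median of 12.98 in 6 WT mice. In batch 2 it ranged from 12.5 to 44.9 CPM with a median of 21.8 in 7 HET mice, and the 5 WT mice had 14.3, 14.0, 16.4, 21.5 and 21.8 CPM. The groups overlapped in both batches: HET replicate 5 stood above all other mice of batch 1, and HET replicates 11, 12 and 13 stood above every WT mouse of batch 2. The log2 fold change of HET over WT in all mice was 0.45 (standard error 0.23), and edgeR's quasi-likelihood test gave a p of 0.0650 before adjustment and 0.997 after it. Without HET replicate 5 it was 0.29, and in batch 1 alone it moved from 0.35 to 0.03.

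Hspa1b, its neighbour, followed the same mice. It ranged from 21.1 to 62.7 CPM in HET and 23.3 to 37.3 CPM in WT of batch 1, and from 26.5 to 79.9 CPM in HET and 28.7 to 42.4 CPM in WT of batch 2. HET replicate 5 was again the highest of batch 1 at 62.7 CPM, and HET replicate 13 the highest of batch 2. In all mice Hspa1b had a log2 fold change of 0.31 (standard error 0.20, edgeR adjusted p = 0.997). It was 0.18 without HET replicate 5, and in batch 1 alone the sign then turned, from 0.17 to -0.11. In batch 2 Hspa1b was at 0.44, and at 0.26 without HET replicate 13.

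Hspa8 ranged from 1095 to 1375 CPM with a median of 1272 in HET of batch 1, and from 954 to 1807 CPM with a median of 1383 in WT. In batch 2 it ranged from 1528 to 2766 CPM with a median of 2547 in HET, and the 5 WT mice had 1517, 1525, 1736, 1975 and 2042 CPM. In batch 2, HET replicates 9, 11, 12 and 13 lay at 2547 to 2766 CPM, above every WT mouse, while HET replicates 7, 8 and 10 lay among the WT mice. The log2 fold change in batch 2 was 0.32 with a 95% interval from -0.07 to 0.71 (edgeR unadjusted p = 0.0959, adjusted p = 0.643). In batch 1 it was -0.10 with an interval from -0.40 to 0.19.

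Hsph1 ranged from 72.8 to 113 CPM with a median of 94.4 in HET of batch 1, and from 72.7 to 126 CPM with a median of 109 in WT. In batch 2 it ranged from 111 to 259 CPM with a median of 215 in HET, and the 5 WT mice had 98.3, 109, 120.0, 135 and 155 CPM. The same 4 HET mice, at 215 to 259 CPM, were above every WT mouse, and the other 3 HET mice were within the WT range. The log2 fold change in batch 2 was 0.57 with an interval from 0.05 to 1.09 (edgeR unadjusted p = 0.0335, adjusted p = 0.594). The exact two-sided permutation p over the 7 and 5 mice was 0.0556 on log2 CPM and 0.157 on log2(TPM + 1), both unadjusted. In batch 1 the log2 fold change was -0.14.

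Hsp90aa1 ranged from 316 to 427 CPM with a median of 366 in HET of batch 1, and from 339.9 to 468 CPM with a median of 392 in WT. In batch 2 it ranged from 373 to 704 CPM with a median of 613 in HET, and the 5 WT mice had 330.2, 368, 442, 437 and 498 CPM. There 5 of 7 HET mice were above every WT mouse, namely replicate 10 and the same 4 as before. The log2 fold change in batch 2 was 0.45 with an interval from 0.07 to 0.82 (edgeR unadjusted p = 0.0231, adjusted p = 0.590). The exact permutation p for 7 against 5 mice was 0.0404 on log2 CPM and 0.111 on log2(TPM + 1), both unadjusted. In batch 1 the log2 fold change was -0.12 with an interval from -0.31 to 0.08.

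Hsp90ab1 ranged from 752 to 910 CPM in HET and 777 to 919 CPM in WT of batch 1. In batch 2 it ranged from 947 to 1464 CPM with a median of 1310.3 in HET, and the 5 WT mice had 908, 892, 1007, 1027 and 1125 CPM. HET replicates 9, 11, 12 and 13 were once more above every WT mouse. The log2 fold change in batch 2 was 0.27 with an interval from 0.04 to 0.51 (edgeR unadjusted p = 0.0253, adjusted p = 0.592). In batch 1 it was -0.05.

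The other 4 members showed smaller contrasts or wider intervals. Hspe1 in batch 2 had a log2 fold change of 0.21 with an interval from 0.01 to 0.41 (edgeR unadjusted p = 0.0408, adjusted p = 0.602). There 5 of 7 HET mice were above every WT mouse. For Hspe1 the exact permutation p in batch 2 was 0.0745 on log2 CPM and 0.663 on log2(TPM + 1), both unadjusted. Hspb1 in batch 2 was at 0.41 with an interval from -0.15 to 0.97, and HET replicate 13 had 17.6 CPM, while the other HET mice had 5.33 to 10.1 CPM. Without that mouse the value for Hspb1 in batch 2 was 0.18. Dnajb1 was at 0.12 in batch 1 and 0.08 in batch 2, and Bag3 at 0.0036 and 0.03. HET replicate 5 held the highest Dnajb1 of batch 1, 43.4 CPM, and without it the batch 1 value was -0.06.

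**Figure D2:**
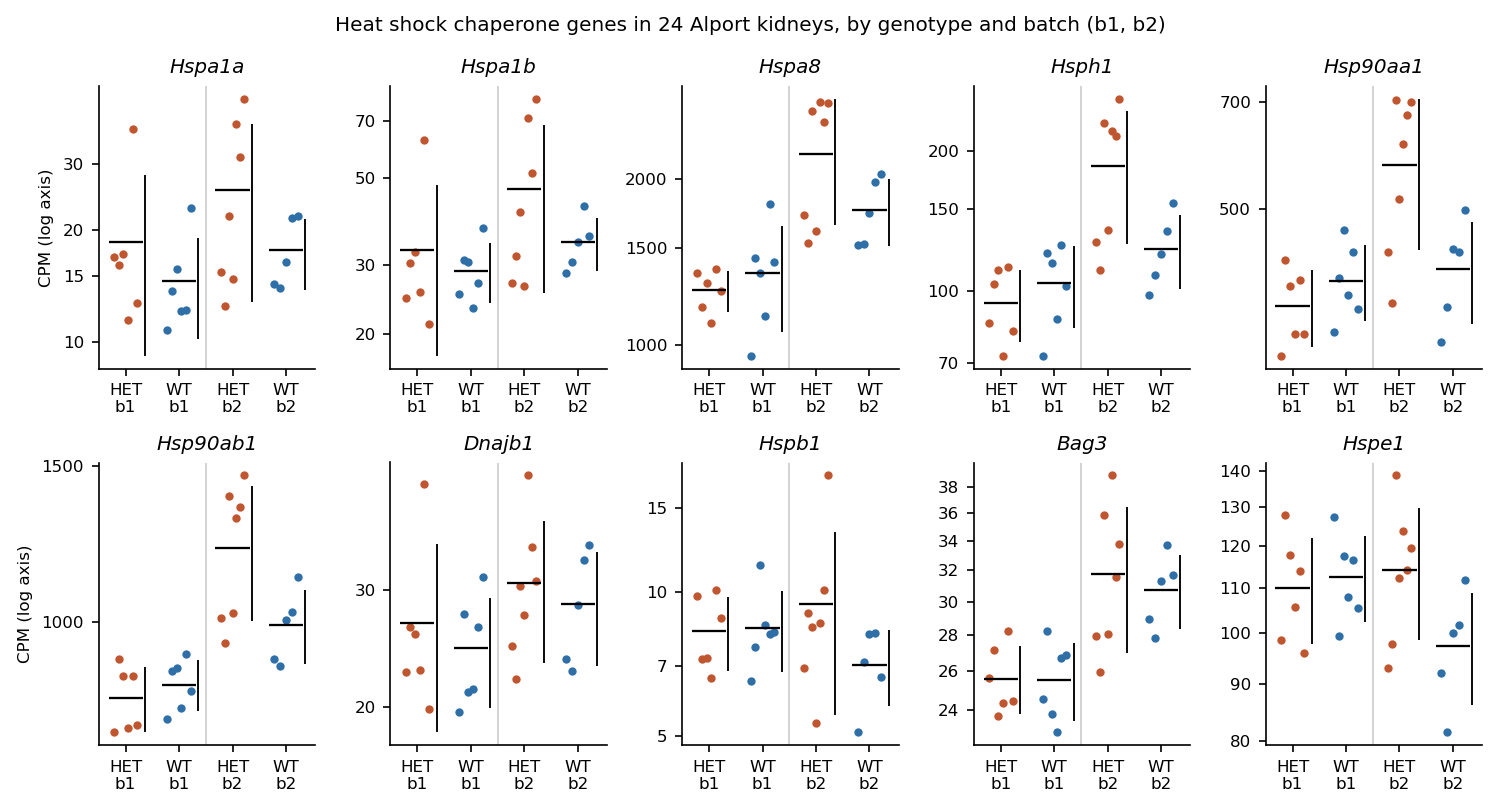
CPM (log axis) of each gene in every mouse, HET in orange and WT in blue, batches 1 and 2 (b1, b2) apart, with horizontal bars at the mean and vertical bars at ± 1 SD. For Hspa8, Hsph1 and Hsp90ab1, 4 HET mice of batch 2 lie above every WT mouse of that batch, and for Hsp90aa1 5 do.

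Over all mice, 0 of the 10 members passed an adjusted p of 0.05 between HET and WT by edgeR's quasi-likelihood test, and 0% of the 18339 genes tested did. None had an unadjusted p under 0.05, a level that 4.12% of all genes reached, 2.48% being higher in HET. DESeq2 and limma voom also called 0 members, with 1 and 0 at an unadjusted p under 0.05. All 10 log2 fold changes were positive, with a median of 0.14, while 56.3% of all genes were positive and their median was 0.0098. Without the 3 doubted libraries, a setting chosen after the values were seen, 10 were still positive with a median of 0.15, and 0 were called.

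The count of members higher in HET differed between the batches, though no member was called for a difference between them. In batch 1, 4 members were higher and 6 lower in HET with a median of -0.03, 0 were called (0% of 18494 genes), and 0 had an unadjusted p under 0.05 (2.82% of all genes, 1.28% being higher), while 49.4% of all genes were higher in HET. Without HET replicate 5, 1 member was higher and 9 lower in batch 1, with a median of -0.07. Without the 3 doubted libraries, 5 members were higher and 5 lower there, with a median of -0.02. In batch 2 all 10 were higher, with a median of 0.36 against 0.00021 over all genes, and 50.1% of all genes were higher. The median was 0.24 without HET replicate 13, and 8 members were higher without HET replicate 11 and 9 without HET replicate 9 or WT replicate 8. In batch 2, 0 members were called, while 0.00557% of 17955 genes were, and 4 members (Hsp90aa1, Hsp90ab1, Hsph1 and Hspe1) had an unadjusted p under 0.05, which 8.28% of all genes reached, 4.08% being higher. Those 4 became 0 without WT replicate 7 or without WT replicate 8, 1 without HET replicate 9, 2 without HET replicate 11, 12 or 13 or WT replicate 9, and 6 without HET replicate 10. In the 7 inducible members the median of batch 2 was 0.44 and in the 3 constitutive ones 0.27. After genotype means were removed, the members went together across the mice of batch 2, with a median Pearson correlation of 0.81 over pairs. Their shared direction is therefore not 10 separate results.

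The difference between the batches in the effect of genotype was tested as an interaction. It was 0.58 for Hsp90aa1 (standard error 0.20, unadjusted p = 0.00907), 0.34 for Hsp90ab1 (standard error 0.13, unadjusted p = 0.0151) and 0.73 for Hsph1 (standard error 0.29, unadjusted p = 0.0195) on the log2 scale. By edgeR's quasi-likelihood test the adjusted p was 0.557 for both HSP90 genes and 0.568 for Hsph1, so 0 members were called, as were 0% of all genes, and 3 members had an unadjusted p under 0.05 against 8.2% of all genes, 5.19% being positive. The interaction was positive in 9 of 10 members and in 55.3% of all genes. DESeq2 and limma voom called 0 as well, with 4 and 3 members under that level. Without the 3 doubted libraries the interaction was positive in 8 of 10 members. Its median over members was then 0.26 in place of 0.31, and over all genes 0.00068 in place of 0.02.

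The direction in some members depended on the scaling. Scaled by library totals, or as log2(TPM + 1) or log2(FPKM + 1) with limma, Dnajb1 and Bag3 were lower in HET of batch 2, so that 8 of 10 members were higher, and none of the 10 reached an unadjusted p of 0.05. On log2(TPM + 1) the median of all genes in that contrast was itself -0.11, and 9 members were above that median. In batch 1 on the same scale 9 of 10 were higher in HET, where the median of all genes was 0.05, and 4 members were above it, the same number as were positive after TMM scaling.

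**Figure D3:**
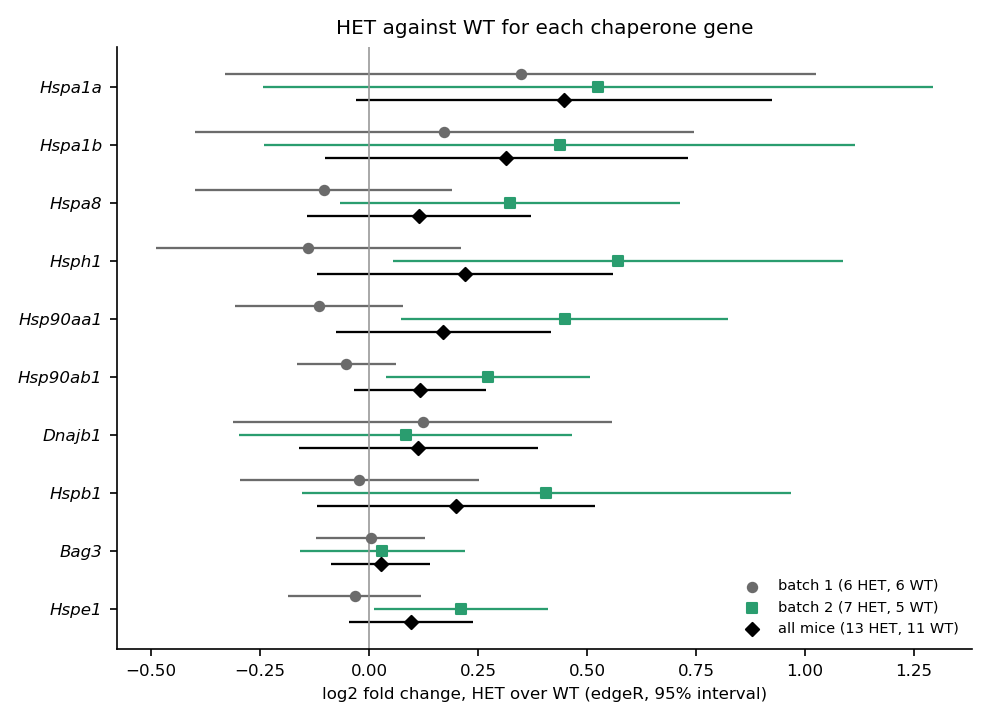
Log2 fold change of HET over WT for each gene from edgeR, with 95% intervals, in batch 1 (6 and 6 mice), batch 2 (7 and 5) and all mice (13 and 11, with batch in the model). In batch 2 the intervals of Hsph1, Hsp90aa1, Hsp90ab1 and Hspe1 lie above 0, and in batch 1 every interval spans 0.

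Markers of other tissue differed between mice as well. In batch 2 the summed level of 10 adipose markers was 29.1 to 195 CPM in HET and 25.04 to 208 CPM in WT, and all 10 were lower in HET with a median log2 fold change of -0.76. The 7 erythrocyte markers summed to 402 to 1044 CPM in HET and 335 to 745 CPM in WT of batch 2. Of these 7, 0 were higher in HET in batch 1, with a median log2 fold change of -0.17, and 6 in batch 2, with a median of 0.48, and the interaction was positive for all 7 with a median of 0.62. None of the markers of these lists was at 0 in every library, and none was called. The 22 immediate early genes, which many cells switch on within minutes of a stimulus, summed to 276 to 579 CPM in HET and 238 to 328 CPM in WT of batch 2. Their part in the results for the chaperone genes was not tested.

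Between batches, 5 members were higher in batch 2 by edgeR's quasi-likelihood test and none was lower. The log2 fold changes were 0.64 for Hsph1 (standard error 0.16, adjusted p = 0.00160), 0.62 for Hspa8 (0.12, adjusted p = 0.000126), 0.41 for Hsp90ab1 (0.07, adjusted p = 2.87e-05), 0.37 for Hsp90aa1 (0.12, adjusted p = 0.00899) and 0.29 for Bag3 (0.06, adjusted p = 3.51e-05). Of all 18339 genes, 63.5% were called, 32.6% higher and 30.9% lower. The 5 of 10 members called higher stand beside the 32.6% of all genes called in that direction. In direction 8 of 10 members were higher, as were 53.1% of all genes, and the same 5 had an unadjusted p under 0.05, a level at which 66.3% of all genes passed and 34.3% were higher. Without HET replicate 5, 8 members were called. On log2(TPM + 1) 15127 genes were called higher and 1908 lower, and 10 members were higher, while the median of all genes moved from 0.03 to 0.69.

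The levels of the 10 members went together from mouse to mouse. After genotype and batch means were removed, the Pearson correlation of log2 CPM over the 24 mice was positive in all 45 pairs, with a median of 0.71 and a range from 0.08 to 0.96. By 100000 permutations of mice within genotype and batch, 36 pairs had an adjusted p under 0.05 by r and 35 by Spearman's rho. Within batch 1 the median was 0.48 and 8 pairs passed, and within batch 2 the median was 0.81 and 36 pairs passed (n = 12 each). The share of passing pairs among other genes was not computed, so these counts do not set the members apart from other genes.

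The closest pairs were HSP90 and HSP110 genes. Hsph1 and Hsp90ab1 had an r of 0.96 and a rho of 0.94 (permutation p of 1e-05 for each, the smallest these permutations can give, adjusted to 7.5e-05 and 9e-05), with an r of 0.91 in batch 1 and 0.99 in batch 2. Leaving out the 2 mice farthest from the median of Hsph1 left r at 0.96. Hsp90aa1 and Hsp90ab1 had an r of 0.95 and a rho of 0.94, with 0.93 and 0.95 in the batches. Hspa8 and Hsph1 had an r of 0.91 and a rho of 0.93, with 0.79 and 0.98. Hspa1a and Hspa1b had an r of 0.94 and a rho of 0.91, a value that reads shared by the 2 genes could raise or lower.

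Hspb1 and Hspe1 stood least with the others. Their own r was 0.08 (rho -0.01, adjusted p = 0.769), and in batch 1 it was -0.27. In batch 1 Hspe1 also had negative r with Hspa8 (-0.27) and Bag3 (-0.03), where in batch 2 these were 0.79 and 0.81. In batch 2 the 4 HET mice above every WT mouse in Hspa8 form a group of their own, so r was taken again without them, as a description added after the values were seen. Over the 8 other mice the median of the 45 pairs was 0.78, 43 pairs were positive, and Hsph1 with Hsp90ab1 was at 0.95.

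**Figure D4:**
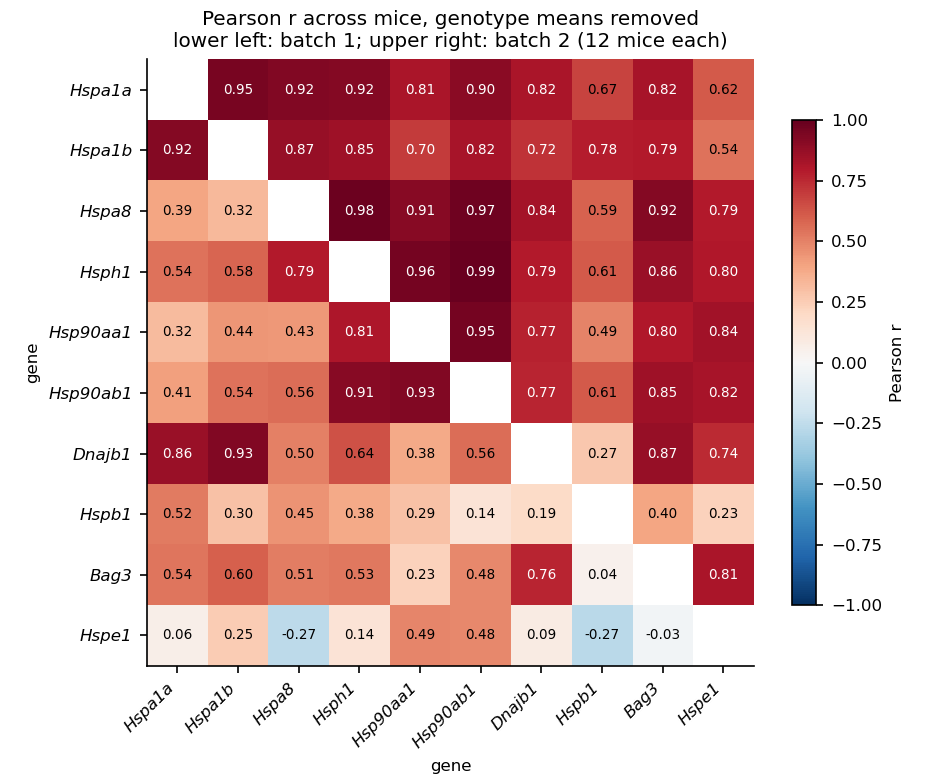
Pearson r of log2 CPM across mice for each pair of genes after genotype means were removed, batch 1 in the lower left and batch 2 in the upper right (12 mice each). The median over the 45 pairs is 0.48 in batch 1 and 0.81 in batch 2, and the lowest values of batch 1 are in the Hspe1 row.

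The members ran opposite to Cirbp, a cold-inducible RNA-binding protein that is known to fall when cells are warmed. This relation and those with Rbm3, the other cold-inducible gene, and with the mean of 21 immediate early genes were chosen after the values were seen, and the 30 of them were adjusted together. For Hsph1 the r with Cirbp was -0.93 and the rho -0.92 (permutation p of 1e-05 for each, the smallest these permutations can give, adjusted p = 7.5e-05), with -0.89 in batch 1 and -0.95 in batch 2, and -0.90 without the 2 mice farthest from the median of Hsph1. For Hspa8, Hsp90aa1 and Hsp90ab1 it was -0.91, -0.90 and -0.90. For Hspa1a it was -0.74 and for Hspb1 -0.47, which was not called (adjusted p = 0.103 by permutation). In all, 9 of 10 members were called with a negative r, and the share of all genes that would be called so was not computed. Within batch 1, 3 passed by r (Hspa8, Hsph1 and Hsp90ab1, adjusted p = 0.0216, 0.00630 and 0.0216 by permutation) and Hspe1 was at -0.10, and within batch 2, 8 passed, the others being Hspa1b and Hspb1.

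Cirbp was lowest where the chaperone genes were highest. In HET replicates 9, 11, 12 and 13 it was at 11.7, 11.9, 12.2 and 13.1 CPM, and in the other 8 mice of batch 2 it was at 16.8 to 26.1 CPM. Over those 8 mice alone Hsph1 and Cirbp had an r of -0.93. Rbm3 showed weaker relations, the strongest being -0.49 with Hsph1, Hsp90aa1 and Hsp90ab1 (adjusted p = 0.0328, 0.0230 and 0.0227 by permutation), and in neither batch alone did any of these pass. Of the relations with the immediate early genes 1 was called, that of Dnajb1 (r of 0.60, rho of 0.52, adjusted p = 0.0188 and 0.0224 by permutation), with 0.76 in batch 1 and 0.34 in batch 2. HET replicate 5 had the highest summed level of the 22 immediate early genes, 1697 CPM, and the highest Hspa1a of batch 1. The next highest mouse, HET replicate 4, had 909.6 CPM and 11.5 CPM of Hspa1a, the lowest among HET mice of batch 1. WT replicate 6 followed at 809 CPM and had 22.9 CPM of Hspa1a, the highest among WT mice of batch 1. A link between the 2 was not tested further.

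**Figure D5:**
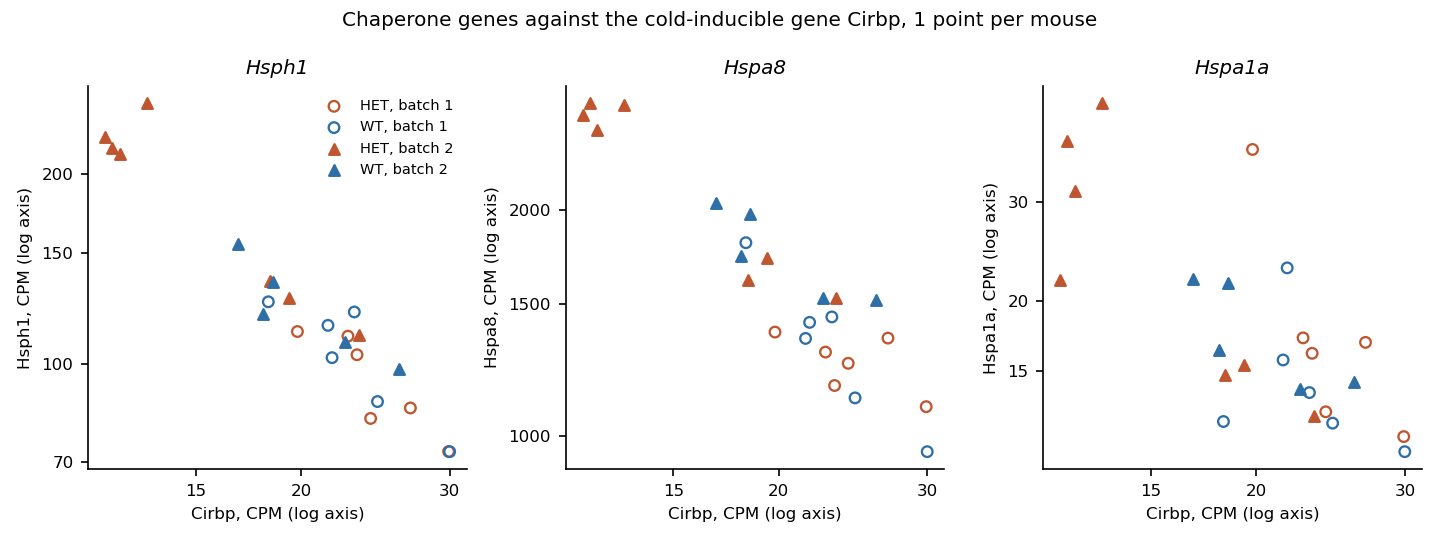
CPM of Hsph1, Hspa8 and Hspa1a against CPM of Cirbp (all log axes), 1 point per mouse, HET in orange and WT in blue, open circles for batch 1 and filled triangles for batch 2. The 4 HET mice of batch 2 with 11.7 to 13.1 CPM of Cirbp hold the highest Hsph1 and Hspa8 of all 24 mice, and HET replicate 5 of batch 1 lies apart in Hspa1a at 37.2 CPM.

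Among 15350 genes outside the members with a mean of at least 1 CPM, the genes most alike in pattern over the 24 mice were often partners of HSP70 and HSP90. For Hspa8 they were Dnaja4 (r of 0.93), Ubfd1 (0.92), the J-domain gene Dnaja1 (0.89), Ahsa2 (0.87) and Chordc1 (0.84). Ahsa1, which activates the ATPase of HSP90, was the nearest to Hsph1 (0.95) and to Hsp90ab1 (0.95), and Dnaja1 came next for both (0.95 each). Hsp90aa1 was nearest to Hspa4l, an HSP110, at 0.93. P4ha1 was among the nearest 5 of Hsph1 (0.91), Hsp90aa1 (0.93) and Hsp90ab1 (0.94). Hspa1a and Hspa1b were nearest to Tspyl1 (0.83 each). These are descriptions over the same 24 libraries, which share depth and scaling, and no test was made.

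Dnajb1 was nearest to Josd1 (0.87) and to Jmjd6 (0.85). Bag3 was nearest to Fastkd5 (0.85) and Sfpq (0.81), and Dnaja1 came next at 0.80. Hspb1 was nearest to Serpinh1, the collagen chaperone HSP47, at 0.75, with 0.40 in batch 1 and 0.85 in batch 2. Nfkb1 followed at 0.74, and Hmox1, heme oxygenase, at 0.72. Hspe1 was nearest to Mrps36 (0.92), Rnasek (0.90), Eif2s2 (0.90) and Uqcrh, a subunit of respiratory complex III (0.89). No chaperone was among the nearest 5 of Hspe1.

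The wider chaperone network was read from lists that had been drawn up by function. Genes of a list were read in the same mice, so their counts are not independent results. Of 14 tested HSP90 co-chaperones and paralogues, 2 were higher in HET in batch 1 and 14 in batch 2, with medians of -0.05 and 0.21. There 7 had an unadjusted p under 0.05 in batch 2, and 0 were called in either batch by edgeR. Over all genes of batch 2, 8.28% reached that level and 50.1% were higher in HET, and in batch 1 49.4% were higher. Ahsa2 was at 0.06 in batch 1 and 0.45 in batch 2, Ahsa1 at -0.04 and 0.36, and Hsp90b1, the HSP90 of the endoplasmic reticulum, at -0.08 and 0.39. Fkbp4, an immunophilin of the steroid receptor complex, was at -0.07 and 0.21.

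Of 15 chaperonins and prefoldins, which fold actin and tubulin or, for Hspd1, mitochondrial proteins, 1 was higher in HET in batch 1 and 15 in batch 2, with medians of -0.04 and 0.10. Hspd1 was at -0.03 and 0.16. Of 19 other J-domain genes, 6 were higher in batch 1 and 16 in batch 2, and Dnaja1 was at -0.10 and 0.38. Of 10 tested other HSP70 and HSP110 genes, 3 and 7 were higher, and Hspa5 (BiP) and Hyou1, both of the endoplasmic reticulum, were at -0.20 and 0.57, and at -0.11 and 0.50. In these 3 lists 6, 5 and 4 genes had an unadjusted p under 0.05 in batch 2, and 0 were called. Of all genes in batch 2, 8.28% reached that level, 4.08% being higher.

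Of 4 tested genes of the HSF family, 2 were higher in HET in each batch, and Hsf1, which encodes the heat shock transcription factor, was at -0.03 and -0.05. Of 11 exchange factors and partners of HSP70, 4 were higher in batch 1 and 7 in batch 2, with St13, which encodes the HSP70 interacting protein Hip, at 0.0024 and 0.11. Of 7 tested small heat shock genes 4 were higher in each batch, and Cryab, the αB-crystallin gene, was at -0.03 and 0.29. Of 11 other heat-inducible genes 7 were higher in each batch, and Sqstm1, an autophagy receptor, was at -0.02 and 0.02. Of 16 clock genes 10 and 12 were higher, and Per1 was at 0.30 and 1.04. Across these lists 0 genes were called for genotype in either batch or in all mice by edgeR's quasi-likelihood test.

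By log2 fold change, immediate early genes were mostly higher in HET in both batches. Of 21 tested in batch 1 and 22 in batch 2, 20 were higher in each, with medians of 0.77 and 0.30, and 0 were called. Over all genes, 49.4% were higher in batch 1 and 50.1% in batch 2. Fosb was at 1.64 in batch 1 and 2.51 in batch 2. The highest single mice for these genes in batch 1 were HET replicates 5 and 4. The summed level of the list had a median over mice of 302 CPM in HET and 285 CPM in WT of batch 1. In batch 2 these medians were 359 and 308 CPM.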

How the data were processed

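Kidney RNA of 24 mice was sequenced as bulk libraries, from RNA with an integrity number of at least 8, per the labels' protocols. Per the submitters' processing notes, the authors used fastp, STAR and featureCounts with GRCm38 (mm10). The sources used here give neither versions nor the strand setting. The authors deposited 3 units for 55487 genes: expected counts, TPM and FPKM. In each library 11.8% to 15.4% of genes had deposited expected counts that were not whole within 0.001, so they were rounded.

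Tests used edgeR 4.0.16 in R 4.3.3: quasi-likelihood with robust estimates, TMM scaling, filterByExpr at a minimum count of 10 and Benjamini-Hochberg adjustment at 0.05, with batch in the model for all mice. This kept 18339 genes over all mice, 18494 in batch 1 and 17955 in batch 2. CPM use TMM library sizes, and log2 CPM a prior count of 2. Alternatives were DESeq2 1.42.0, limma 3.58.1, other scalings and filters, and each library left out. The scripts' tests were checked on simulated data. Single members were also tested by exact two-sided permutation within batch. The libraries come from separate mice according to their labels, and p-values measure the spread between them.

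All 10 members were named. Of each pathway list, the rule named the 3 tested genes of highest mean TPM and the 3 of smallest p for HET against WT over all mice. The text gives values for some of these, and 1 gene that the rule names is not reported here. Genes alike in pattern were the 5 of highest r. The members and lists were chosen with earlier results of these data known.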

Additional observations from a re-analysis of the deposited data

Results flagged for a closer look

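In each genotype and batch, every member was examined for a mouse far from the others by Dixon's criterion, 40 examinations in all, of which 4 met it. Chance alone gives about 1 in 20.

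HET replicate 5 of batch 1 stood apart for 3 inducible members. Hspa1a was at 37.2 CPM there and at 11.5 to 17.2 CPM in the other 5 HET mice of that batch. Hspa1b was at 62.7 CPM against 21.1 to 32.3 CPM, and Dnajb1 at 43.4 CPM against 19.9 to 26.4 CPM. The 3 values come from the same mouse, and reads shared by Hspa1a and Hspa1b link that pair. In the same mouse Fos was at 78.3 CPM and Egr1 at 406 CPM, the highest of the 24 libraries, and their part in these values was not tested.

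HET replicate 13 of batch 2 stood apart for Hspb1, at 17.6 CPM against 5.33 to 10.1 CPM in the other 6 HET mice of that batch.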

How the results depend on the processing

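Of 3566 values recomputed under alternatives, 86 turned sign. The 3566 include counts, places by level and SDs, which cannot turn sign. The count of members called for genotype was 0 under every alternative, for all mice, each batch and the interaction. No paired analysis was possible because the replicate numbers were given in order of deposition and pair no mice.

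Over all genes, HET against WT gave 2 calls in all mice and 2 in batch 1 without the 3 doubted libraries, and 1 in batch 1 with DESeq2 or with no filter on low counts. Batch 2 gave 27 with DESeq2, 2 with upper quartile scaling or library totals, 3 with no filter, 0 with log2(TPM + 1), log2(FPKM + 1) or a minimum count of 50, and 1 to 3 when single libraries were left out. The interaction gave 14 with library totals. Between batches 10 members were called on log2(TPM + 1) and log2(TPM + 0.1), and 5 to 8 with single libraries left out.

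On log2(TPM + 1) and log2(TPM + 0.1), the log2 fold change in batch 1 was 0.010 on each scale for Hspa8, 0.011 and 0.012 for Hsph1, 0.013 on each for Hsp90ab1, 0.041 and 0.046 for Hspb1, and 0.031 on each for Hspe1. In batch 2 it was -0.067 and -0.073 for Dnajb1, and -0.12 and -0.13 for Bag3. Over all mice it was -0.028 and -0.027 for Bag3. Between batches it was 0.79 and 0.85 for Hspb1 and 0.84 for Hspe1. The interaction was -0.044 and -0.091 for Hspa1a, and -0.18 and -0.19 for Bag3. On log2(FPKM + 1), Hspb1 was at 0.0060 in batch 1, Dnajb1 at -0.058 and Bag3 at -0.11 in batch 2, Bag3 at -0.041 in all mice, and the interaction at -0.029 for Hspa1a and -0.14 for Bag3. With library totals, Hspb1 was at 1.21e-05 in batch 1, Dnajb1 at -0.046 and Bag3 at -0.098 in batch 2, Bag3 at -0.036 in all mice and -0.12 in the interaction. With no filter, Hspb1 between batches was at 0.0057. Without the doubted libraries, Hspe1 in batch 1 was at 0.0095 and the interaction of Bag3 at -0.014. Within batch 1, r was -0.27 for Hspa8 with Hspe1, -0.27 for Hspb1 with Hspe1 and -0.031 for Bag3 with Hspe1. The cause was not tested.

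With single libraries left out, Bag3 ranged from -0.0012 to 0.047 in all mice, from -0.023 to 0.035 in batch 1, from -0.025 to 0.071 in batch 2 and from -0.012 to 0.086 in the interaction. Hspb1 ranged from -0.14 to 0.043 between batches and from -0.086 to 0.085 in batch 1. Hspa1a ranged from -0.0019 to 0.49 in the interaction. Dnajb1 ranged from -0.063 to 0.21 in batch 1, from -0.031 to 0.16 in batch 2 and from -0.14 to 0.15 in the interaction. Hspa1b ranged from -0.11 to 0.27 and Hspe1 from -0.079 to 0.0063 in batch 1, and r of Hspb1 with Hspe1 from -0.020 to 0.15.

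The 95% intervals of Hspa1a and Hspa1b include 0 in each batch, with 5 to 7 mice in a group. They also include 0 in all mice, with 13 HET and 11 WT mice, and in the interaction. Hspb1 rested on at least 159 counts a library and Hspa1a on at least 353.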
